A study of Mus with 2 samples.

Results

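CXC chemokines were examined in mouse BMDMs, macrophages grown from bone marrow, under M2 conditions with or without GW4064, a synthetic agonist of the bile acid receptor FXR. The members were the 10 genes Cxcl1, Cxcl2, Cxcl3, Ppbp, Pf4, Cxcl9, Cxcl10, Cxcl12, Cxcl14 and Cxcl16, chosen by name among 20060 genes matched to a probe. The choice was made with earlier results of these data known. They were covered by 12 probes, each printed at 1 spot. Marrow of 10-week-old male C57BL6/J mice was grown for 7 d with 10 ng/mL of M-CSF, and both cultures then had IL-4, which drives M2 polarization, at 10 ng/mL for 24 h. The control culture received DMSO, the solvent, and the other culture received 10 µM GW4064. Each condition was read on 1 Agilent 1-colour array of total RNA. How many mice or cultures stood behind an array was not given in the sources used here. With 1 array per condition there was no replicate error and no p-value, and the number of arrays limited the precision of every difference below.

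Chemokines are small secreted proteins that attract leukocytes through receptors coupled to G proteins, and in the CXC group a single residue separates the first pair of conserved cysteines. Cxcl1, Cxcl2, Cxcl3 and the processed product of Ppbp carry a Glu-Leu-Arg motif before these cysteines and draw neutrophils through Cxcr2. Cxcl9 and Cxcl10 are induced by interferons and draw T cells through Cxcr3. Cxcl12 and Cxcl14 are made constitutively in many tissues, and Cxcl16 is anchored in the membrane of macrophages until it is shed. In macrophages the neutrophil-attracting and interferon-induced members belong to the inflammatory response, whereas IL-4 drives a program apart from it.

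Of the 10 chemokines, Cxcl14 was far higher with GW4064 and Ppbp was clearly lower. The Cxcl14 signal was 7.14-fold higher and the Ppbp signal 3.16-fold lower on the GW4064 array. Cxcl10, Cxcl12 and Cxcl16 were lower and Pf4 was higher, each by less than 2-fold, and Cxcl9 was lower by a bound only. No probe of Cxcl1, Cxcl2 or Cxcl3 was well above background on either array. Over the 6 members that both arrays measured, 4 were lower and 2 were higher, with a median log2 difference of -0.33, against 0.0047 over the 12578 genes so measured. Cxcl9, measured on the DMSO array alone, could only come out lower and is not in that count. At 2-fold, 1 of 7 members was higher, where 2.04% of all 13532 measured genes were, and 1 of 7 was lower, where 2.71% were. With 7 genes, these counts describe Cxcl14 and Ppbp and not the family.

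**Figure D1:**
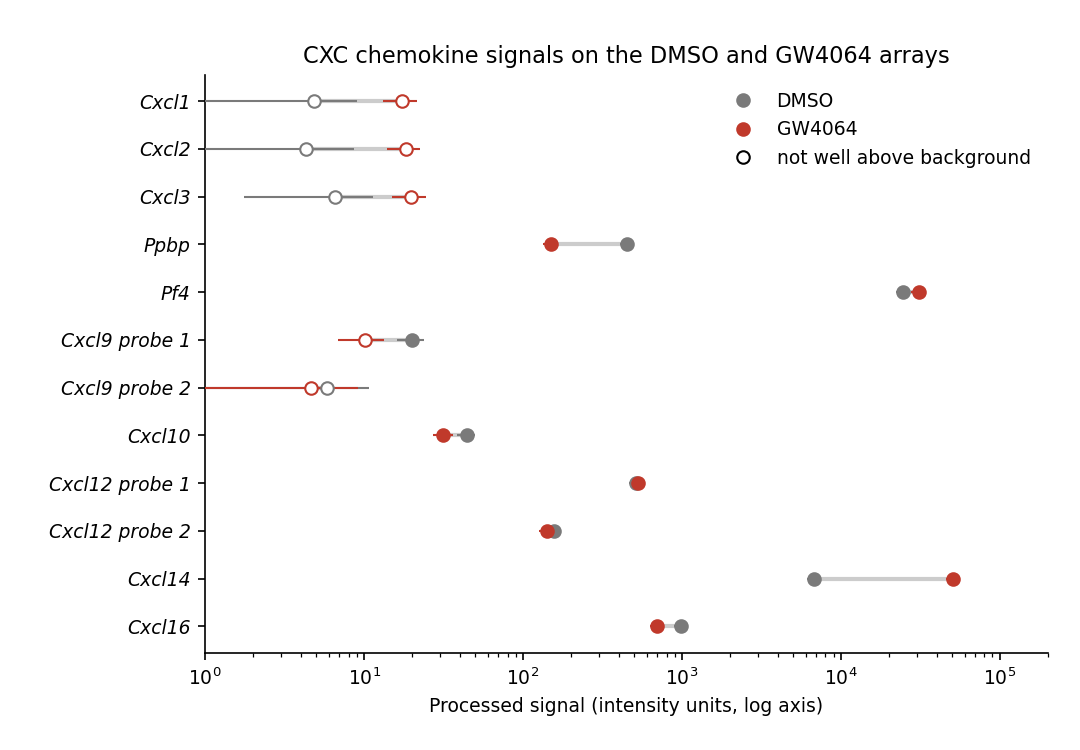
Processed signal (intensity units, log axis) of the 12 CXC chemokine probes on the DMSO array (grey) and the GW4064 array (red). Bars are the scanner software's error for each spot, cut at the axis limit where they pass it, and open circles were not well above background. Cxcl14 moved from 6779 to 50664 and Ppbp from 454 to 150, while the Cxcl1, Cxcl2 and Cxcl3 probes were dim on both arrays.

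A signal here is the brightness of a spot after the scanner software subtracted the background. Differences are on the log2 scale, GW4064 minus DMSO, after each array was scaled to its 75th percentile (1209 on the DMSO array, 1265 on the GW4064 array). A probe counted as measured where the software marked it well above background, which held for 57.4% of the probes with DMSO and 58.5% with GW4064. Some probes were so marked on 1 array alone. There the dim side was raised, if lower, to its array's lowest signal marked well above background (15.7 with DMSO, 15.1 with GW4064). Where it was raised, the difference is a lower bound. Where it was not, the difference is that of the spots' own signals, with 1 side too dim to be measured. The main chemokine differences are set against a software error and a copy SD. The software error is the scanner's estimate for the spots, and the copy SD is the median SD of the difference over the copies of the 50 probes printed 10 times that were nearest in signal level. Neither covers the spread between cultures. Areas with clustered differences of 8-fold or more took up 16.5% of the slide's spots, and 0 of the 12 chemokine spots had such a spot within 300 µm. In the 5 rows and columns around each chemokine spot, the remaining spots had a median log2 difference between -0.21 and -0.020.

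Cxcl14, a chemokine of epithelia and connective tissue that attracts cells of the monocyte lineage, had a signal of 6779 ± 678 (software error) with DMSO. With GW4064 the signal was 50664 ± 5066. Both were well above background and not saturated. The log2 difference of 2.84 was much larger than the software error of 0.20 and the copy SD of 0.069. It was the 20th largest increase among 13532 genes. Ppbp was the only other member outside 2-fold, as the plot of differences against level shows.

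**Figure D2:**
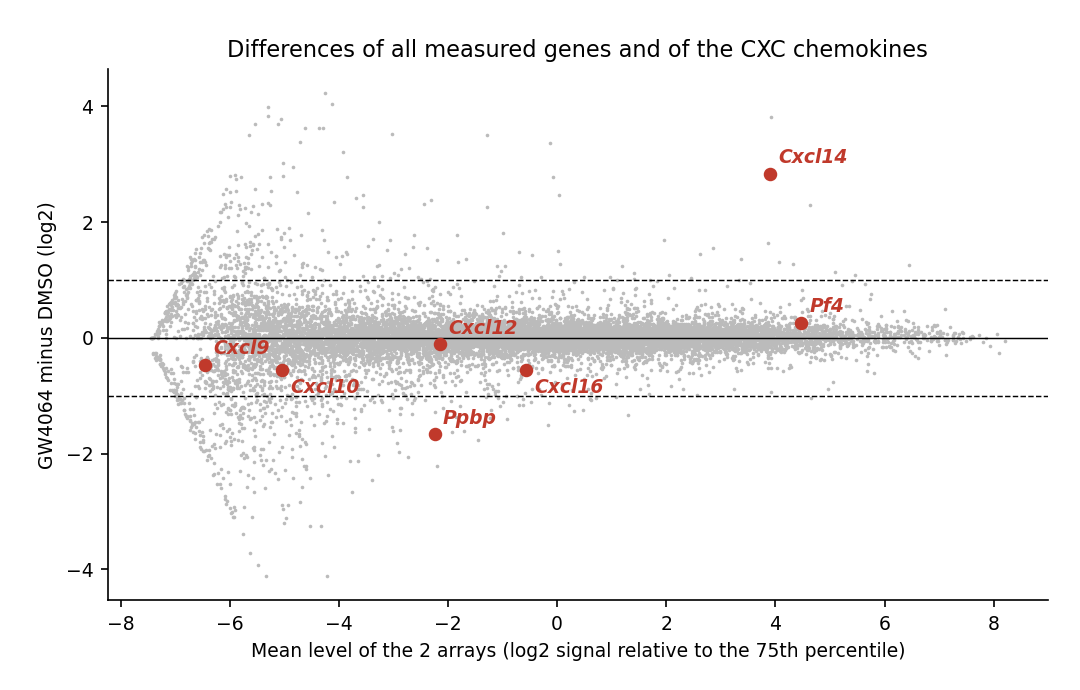
Log2 difference (GW4064 minus DMSO) against the mean level of both arrays (log2 signal relative to the 75th percentile) for 13532 measured genes (grey) and the 7 measured CXC chemokines (red). Dashed lines mark 2-fold. Cxcl14 (2.84) and Ppbp (-1.66) lie outside the lines, and the other 5 lie inside them.

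Cxcl12, which holds progenitors in the marrow and acts through Cxcr4 and Ackr3, was measured by 2 probes matched to different RefSeq transcripts. For the probe matched to NM_001012477, the signal was 514 ± 51.6 with DMSO and 532 ± 53.3 with GW4064, a log2 difference of -0.017. For the probe matched to NM_021704, the signal was 156 ± 16.3 with DMSO and 141 ± 14.8 with GW4064, a log2 difference of -0.21. The first difference was below its software error of 0.20 and its copy SD of 0.074, and the second was at the software error of 0.21 and above its copy SD of 0.12. The mean over both probes was -0.11. Thus the 2 homeostatic members, Cxcl12 and Cxcl14, were not alike on these arrays.

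Cxcl16, the transmembrane ligand of Cxcr6 that also takes up oxidized lipoprotein, had a signal of 984 ± 98.5 with DMSO and 701 ± 70.2 with GW4064. The log2 difference of -0.56, a 1.47-fold lower signal, was above the software error of 0.20 and the copy SD of 0.065. Of all measured genes, 5.92% had a more negative difference. Adam10, the protease that sheds Cxcl16 from the membrane, had signals of 7635 and 12011, a log2 difference of 0.59. The probes for Adam17, a related sheddase, had log2 differences of -0.044 and 0.30.

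Ppbp, the platelet basic protein from which a neutrophil-attracting chemokine is cut, had a signal of 454 ± 45.7 with DMSO and 150 ± 15.7 with GW4064. The log2 difference of -1.66 was larger than the software error of 0.21 and the copy SD of 0.095. It was the 129th largest decrease among 13532 genes. Pf4, the other chemokine of platelet granules and also a transcript of macrophages, had a signal of 24611 ± 2461 with DMSO and 30857 ± 3086 with GW4064. Its log2 difference of 0.26 was above the software error of 0.20 and the copy SD of 0.066. In the RefSeq annotation these 2 genes are neighbours on chromosome 5. Their differences were 1.92 apart on the log2 scale, so that relative to Pf4 the Ppbp signal was 3.79-fold lower with GW4064.

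Platelets and megakaryocytes are the usual source of Ppbp, and 12 of their marker genes other than Ppbp and Pf4 were listed. Both arrays measured 7 of them, all 7 lower and 0 by 2-fold, with a median of -0.13. Treml1 (-0.0044) and Clec1b (-0.047) differed least. The Clec1b value is the mean of 3 probes that disagreed in direction, at -0.65, 0.19 and 0.31. Another 4 were measured on the DMSO array alone and so could only come out lower, 3 of them past 2-fold. Over all genes, 367 of 13532 (2.71%) were 2-fold or more lower with bounds counted. With probes well above background on both arrays only, 164 of 12578 were. Gp1ba, a subunit of the platelet receptor for von Willebrand factor, was 2.65-fold lower, from signals of 40.0 and 15.8. Gp9, another subunit of that receptor, was 2.31-fold lower, from 43.7 and 19.8. Itga2b, the platelet integrin alpha IIb, was 2.21-fold lower, from 35.4 and 16.8. The GW4064 signals of these 3 were too dim to be measured but above 15.1. Their folds are thus those of the spots' own signals and are not bounds. The spots of these 3 had 0 others differing 8-fold within 300 µm. After normexp background correction and quantile normalization 0 of the 11 were past 2-fold, with 9 lower and 2 higher. Gp5 was too dim on both arrays. The summed signal of the brightest probes of the measured genes was 38165 with DMSO and 30091 with GW4064, most of it from Itgb3 and Vwf. The part of megakaryocytes or platelets in the Ppbp difference was not tested, and in bulk RNA fewer cells of a type and less RNA per cell cannot be told apart.

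Cxcl9 and Cxcl10, the interferon-induced members, were both dim. The brighter Cxcl9 probe had a signal of 19.9 ± 3.82 with DMSO, well above background, and 10.1 ± 3.24 with GW4064, not well above background. It was at least 1.38-fold lower with GW4064, a bound of -0.46 on the log2 scale. The software error of 0.54 and the copy SD of 0.44 belong to the spots' own signals and not to this bound. At those signals the log2 difference was -1.04, with the GW4064 side too dim to be measured. The other Cxcl9 probe was too dim on both arrays, with signals of 5.82 and 4.61. Cxcl10 had a signal of 44.3 ± 5.63 with DMSO and 31.5 ± 4.52 with GW4064, both well above background. Its log2 difference of -0.56 was about 2 times the software error of 0.28 and the copy SD of 0.23. Of all measured genes, 5.86% had a more negative difference than Cxcl10.

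Of the genes that lead from interferon receptors to Cxcl9 and Cxcl10, 14 were listed, all 14 were measured and 0 were 2-fold apart. They were 6 higher and 8 lower, with a median of -0.043, and 2 higher and 12 lower with spike-in centring, with a median of -0.23. Socs1, an inhibitor of cytokine receptor signalling, had a difference of -0.53, and Irf7, a factor that drives interferon genes, had 0.51. The Socs1 spot had 13 others differing 8-fold within 300 µm. Without areas of clustered 8-fold differences 10 of the 14 genes were measured, 3 higher and 7 lower. Irf1, a factor induced by interferon gamma, had signals of 11290 and 10622 at its bright probe, a difference of -0.15. Of 14 other interferon-stimulated genes with a probe, 13 were measured, 11 of them higher and 2 lower, with a median of 0.21 and 0 past 2-fold. With the arrays centred on the spike-in RNA, 7 were higher and 6 lower and the median was 0.019. Ifit3 (0.89) and Oasl1 (0.88), both antiviral genes, were the highest of them, and Gbp5 (-0.069) and Iigp1 (-0.11), both GTPases of antimicrobial defence, were lower. The spots of Ifit3 and Gbp5 each had 2 others differing 8-fold within 300 µm.

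Cxcl1, Cxcl2 and Cxcl3, the macrophage-derived ligands of Cxcr2, failed that mark on both arrays, so no fold is given for them. The signal of Cxcl1 was 4.82 ± 4.20 with DMSO and 17.3 ± 4.27 with GW4064. That of Cxcl2 was 4.30 ± 4.28 with DMSO and 18.3 ± 4.26 with GW4064. That of Cxcl3 was 6.58 ± 4.83 with DMSO and 19.8 ± 4.80 with GW4064. All 3 signals were thus dim on the GW4064 array and dimmer on the DMSO array, at least 12.5 units apart. Of the 15453 probes well above background on neither array, 52 (0.34%), these 3 among them, rose by at least as much. Another 72 (0.47%) fell by at least as much. The copy SD at the level of the 3 probes was 0.57 to 0.69 on the log2 scale. With GW4064 the software marked each of the 3 as significantly above its local background, a weaker mark than well above background. With DMSO it marked Cxcl1 and Cxcl3 so and not Cxcl2. The 3 spots lay apart, in rows 132, 79 and 490 of the array. The transcripts are alike in sequence, and whether 1 transcript bound to more than 1 of these probes was not tested.

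**Figure D3:**
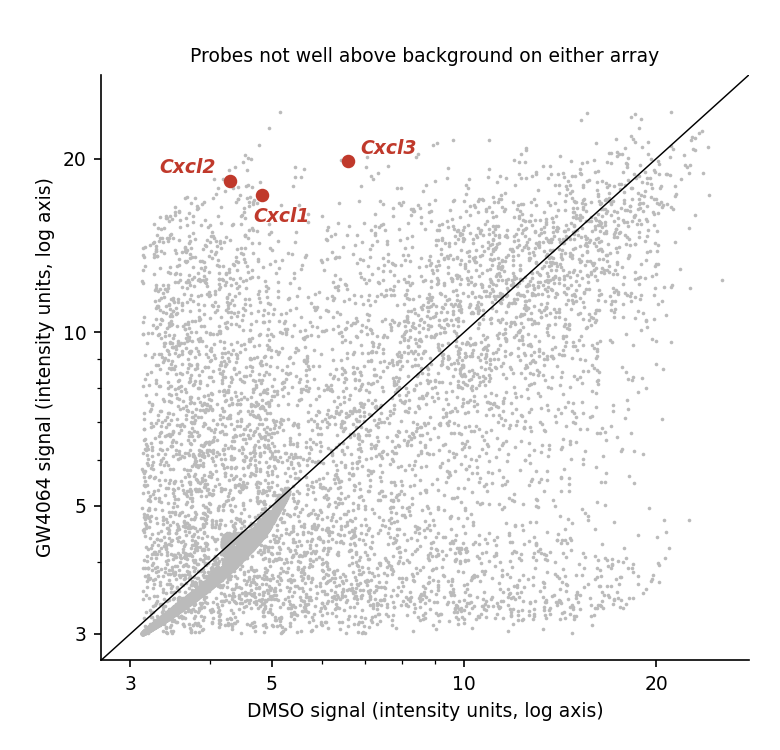
Signals (intensity units, log axes) on the DMSO array and the GW4064 array of the 15453 probes that were well above background on neither array (grey), with Cxcl1, Cxcl2 and Cxcl3 in red. The line marks equal signals. The 3 chemokine probes lie above the line, at 4.30 to 6.58 with DMSO and 17.3 to 19.8 with GW4064.

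Regulators of these 3 genes differed less than 2-fold. Of 15 listed NF-kB subunits, NF-kB inhibitors and proteins that set the stability of chemokine mRNA, 14 were measured, 5 higher and 9 lower, with a median of -0.0091 and 0 past 2-fold in either direction. Nfkbia, an NF-kB inhibitor that is itself an NF-kB target, had signals of 6903 and 9096, a log2 difference of 0.33. Zfp36, which marks such mRNAs for decay, had a difference of -0.031, and Zfp36l2, of the same family, had -0.42. The spot of Zfp36l2 had 5 others differing 8-fold within 300 µm, and that of Nfkbia had 2. With spike-in centring, 13 of the 14 were lower and the median was -0.20, which was close to the median of all probes measured on both arrays (-0.18) under that scaling.

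The other CXC ligands gave no measurement. Cxcl5, Cxcl13, Cxcl15 and Cxcl17 each had a probe too dim on both arrays, and Cxcl11 had no matched probe. The signals of Cxcl5, another Cxcr2 ligand, were 12.8 and 5.53.

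Of 8 receptors for CXC chemokines, 4 were measured and 0 differed by 2-fold. Cxcr4, the receptor of Cxcl12, had signals of 190 and 185, a log2 difference of -0.099. Ackr3, the decoy receptor for Cxcl12, was not well above background, at 4.89 and 4.59. The probes for Cxcr6, the receptor of Cxcl16, differed by -0.0012 and -0.084. Cxcr3, the receptor of Cxcl9 and Cxcl10, differed by -0.11, and Cxcr2 by 0.34, from dim signals of 35.5 and 47.1. Cxcr1, Cxcr5 and Ackr1 were not well above background. The 4 measured receptors thus differed less than Cxcl14 and Ppbp, the 2 chemokines with the largest differences. Cxcr2 differed more than Pf4 (0.26) and Cxcl12 (-0.11).

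Among 9 proteases that cut or shed chemokines, 8 were measured, 5 higher and 3 lower (2 and 6 with spike-in centring). At 2-fold, 1 was higher and 1 was lower, where 2.04% and 2.71% of all measured genes were. Mmp9, a gelatinase of macrophages and neutrophils, was 6.88-fold higher as the mean of 10 spots, from signals of 437 and 3149, and a spot of it had up to 5 others differing 8-fold within 300 µm. Mmp2, a gelatinase of stromal cells, was 2.32-fold lower, from 249 and 112, and its spot also had 5 such neighbours. No protease was 2-fold lower after normexp and quantile normalization or without such areas, while 1 was still 2-fold higher under each. Dpp4, which trims Cxcl10 and Cxcl12, was not well above background, at 4.31 and 14.5.

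**Figure D4:**
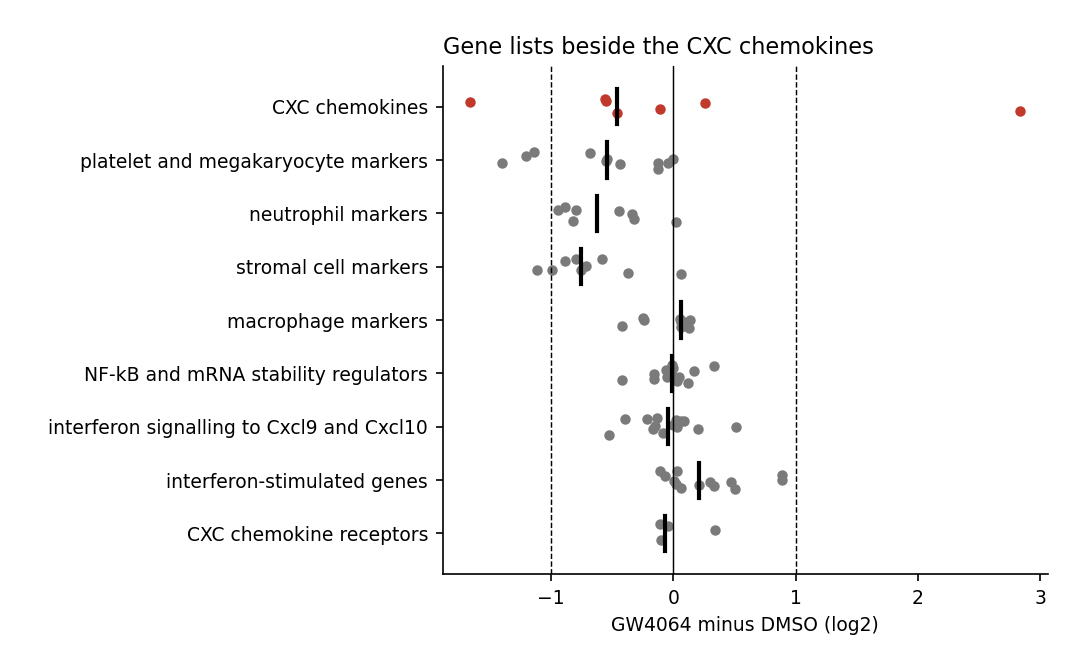
Log2 differences (GW4064 minus DMSO) of the 7 measured CXC chemokines (red) and of the measured genes of 8 lists (grey), with the median of each as a black bar and 2-fold as dashed lines. Genes measured on 1 array alone are drawn at their bounds, or at their own signals where the dim side was not raised. They set the platelet median of -0.54 (-0.13 without them). Medians were -0.62 for neutrophil and -0.76 for stromal cell markers, against 0.058 for macrophage markers, which turned to -0.13 with spike-in centring.

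The macrophage label was borne out by its markers. Of 10 listed, 9 had a matched probe and all 9 were well above background, with a median difference of 0.058, or -0.13 with spike-in centring, and 0 past 2-fold. Their summed signal was 294058 with DMSO and 284817 with GW4064. All 9 M2 markers were measured, 6 of them higher (5 with spike-in centring), with Arg1 alone past 2-fold. Stromal and neutrophil markers were mostly lower with GW4064, few of them by 2-fold. Of 10 stromal markers, 9 were measured, 8 of them lower and 1 by 2-fold. Their median was -0.76 (-0.95 with spike-in centring) and their summed signal 37219 and 20752. Thy1 was measured on the DMSO array alone and could only come out lower. With spike-in centring 3 stromal markers were 2-fold lower, and 0 were after normexp and quantile normalization. Of 10 neutrophil markers, 8 were measured, 7 of them lower and 0 by 2-fold, with a median of -0.62. Their summed signal was 14311 and 9423. With spike-in centring 3 were 2-fold lower and the median was -0.81. The neutrophil median was -0.46 after normexp and quantile normalization, and -0.45 without areas of clustered 8-fold differences. Lum and Retnlg were not well above background, and Ly6g had no matched probe. Stromal cells make Cxcl12 and Cxcl14, whose log2 differences were -0.11 and 2.84. The part of other cell types in the chemokine differences was not tested. Of 8 lymphocyte markers 5 were measured, with a median of -0.32, and Cd3g and Cd79a were among those not well above background. Of 6 endothelial markers 5 were measured, with a median of -0.22. Of 7 dendritic cell markers 4 were measured, with 2 higher and 2 lower. Flt3, a receptor of their progenitors, was at least 4.95-fold higher as a bound from a dim DMSO signal. Its spot had 3 others differing 8-fold within 300 µm, and 0 of the 4 were past 2-fold after normexp and quantile normalization. Nr1h4, the gene for FXR, was not well above background, at 3.46 and 3.24. The Nr1h4 spot had 4 others differing 8-fold within 300 µm. By real-time PCR, the paper reported Nr1h4 mRNA in BMDMs. Of 5 usual targets of FXR 3 were measured, with Nr0b2 at 0.95 from dim signals of 22.5 and 45.5. The Nr0b2 spot had 2 others differing 8-fold within 300 µm. Without areas of clustered 8-fold differences, 2 targets were measured and 0 were higher. Slc51b and Abcb11 were measured on the DMSO array alone. Slc51b was at least 3.14-fold lower. Abcb11 was 3.15-fold lower at its own signals of 58.5 and 19.5, the second not well above background. After normexp and quantile normalization 0 of the 3 targets were past 2-fold.

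Neighbours of the chemokines in the RefSeq gene order were read for the same 2 arrays. Neurog1 and Slc25a48, on either side of Cxcl14 on chromosome 13, were dim and well above background on 1 array each, at least 1.47-fold higher and at least 1.45-fold lower. Next to Cxcl16 on chromosome 11, the Zmynd15 probe printed 10 times had signals of 185 and 107, a log2 difference of -0.85, and Med11 had 0.25. The annotated spans of Cxcl16 and Zmynd15 overlap at one end. Next to Cxcl9, the probes for Sdad1 had -0.12 and 0.077, and next to Cxcl10 the probes for Nup54 had 0.14 and 0.096. Beside Cxcl2, Mthfd2l had 0.14. The differences of 0.14 and less turn negative with spike-in centring.

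The direction of each of the 6 chemokines that both arrays measured was the same under every processing setting. For Ppbp, Pf4, Cxcl10, Cxcl14 and Cxcl16, each with 1 probe, only the scaling and background settings moved the value. Settings that changed which spots or probes were kept left it as it was. Cxcl9 had no value where both arrays had to be well above background. Where its dim side was held at the bound, Cxcl9 could only come out lower, and without a filter on dim probes it was -0.72. Cxcl14 ranged from 2.65 to 2.84 and Ppbp from -1.85 to -1.18. Cxcl16 lay between -0.75 and -0.53, and Cxcl12 between -0.30 and -0.017. Cxcl10 ranged from -0.75 to -0.20 and Cxcl9 from -0.72 to -0.20. The smallest difference of Ppbp, Cxcl9 and Cxcl10 was that after normexp and quantile normalization. Pf4 ranged from 0.070, centred on the spike-in RNA, to 0.26. That scaling lowered every difference by 0.19, so that 211 genes were 2-fold or more higher and 522 lower, against 276 and 367 with the 75th percentile.

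**Figure D5:**
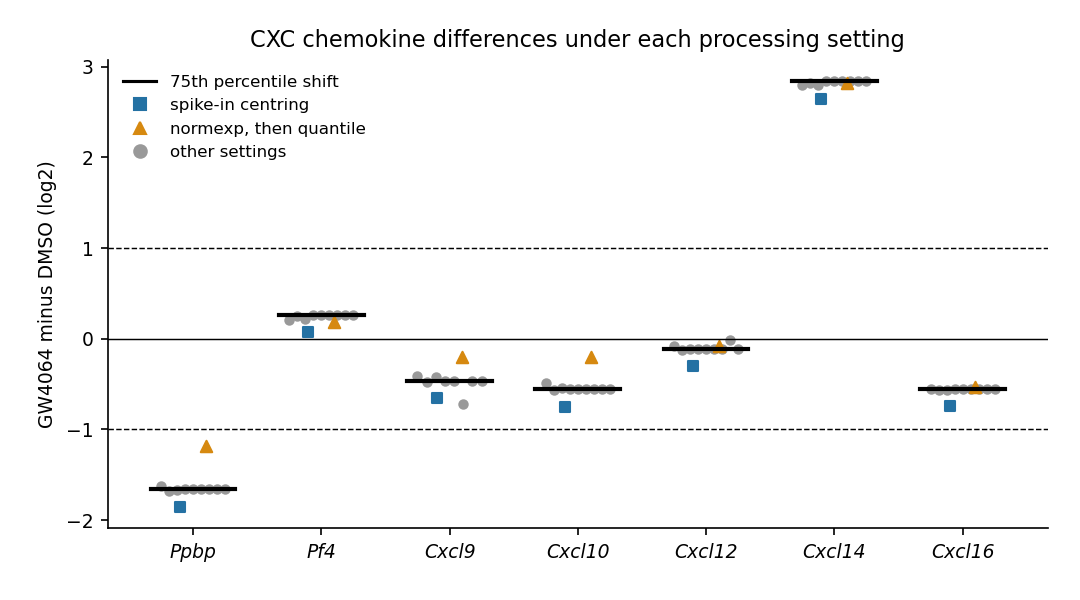
Log2 difference (GW4064 minus DMSO) of each measured CXC chemokine under the 75th percentile shift (black bar), spike-in centring (blue squares), normexp followed by quantile normalization (orange triangles) and the other settings (grey). Dashed lines mark 2-fold. Cxcl14 stayed between 2.65 and 2.84, Ppbp between -1.85 and -1.18, and no chemokine crossed 0, which Cxcl9 could not do at its bound.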

How the data were processed

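Total RNA of BMDMs was labelled with Cy3 and read on 1 Agilent 44K array per condition. The description of the GW4064 array repeats that of the DMSO array, and its title, source name and treatment, which name GW4064, were followed. The authors deposited the intensity of each spot from Feature Extraction 10.7.1.1, with its background subtracted and trends evened out within the array, and with no scaling between arrays. They also deposited a log2 table, whose differences between columns, once shifted by 0.0022, matched those computed here within 0.001 at 39200 of 39200 probes. Its columns have medians of 0.035 and -0.051, and the baseline on which each probe was centred is unknown.

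The log2 intensity minus each array's 75th percentile over 43020 non-control spots was used. Spots marked as uneven or as outliers among copies were left out, 0 were saturated, and spots of a probe were averaged. RefSeq transcripts of GRCm38.p6, without versions, named 26445 probes, and coordinates are left out because the array was designed on another build. Gene values average the probes that were well above background on 1 or both arrays. No test was made, and 2-fold was the threshold. The text names all members, and genes of other lists where 2-fold apart, not well above background, or tied to a member. Ifit3, Oasl1, Gbp5, Iigp1, Socs1, Irf7, Zfp36, Zfp36l2, Treml1, Clec1b, Adam10, Adam17, Cxcr2, Cxcr3, Nr0b2 and the chromosomal neighbours were added after their values were seen. Members, lists and alternatives were chosen with earlier results of these data known. The calculation was checked on simulated data. Probe, protein and promoter sequences were not used here. Calculations ran in Python 3.11.15 with pandas 2.3.3 and numpy 2.4.6, and normexp in limma 3.58.1 under R 4.3.3.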

Additional observations from a re-analysis of the deposited data

How the results depend on the processing

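No paired analysis was possible because there is a single array per condition, which also leaves no replicate to leave out. Of the 276 genes 2-fold or more higher and 367 lower, the numbers became 80 and 50 after normexp with an offset of 50 followed by quantile normalization, 698 and 767 without a filter on dim probes, 107 and 164 with probes well above background on both arrays only, 594 and 752 at 1.5-fold, 65 and 79 at 4-fold, and 168 and 202 without areas of clustered 8-fold differences. The cause was not tested. Under the other settings both numbers were within 1.5 times. One chemokine was 2-fold higher, and 4 were without the filter, with Cxcl1, Cxcl2 and Cxcl3 added at their own dim signals. One was 2-fold lower, and 0 were at 4-fold. The chemokine calls were the same in all other settings. Signal over background limits what can be said of Cxcl1, Cxcl2, Cxcl3, Cxcl9 and Cxcl10.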
